A study of Mus musculus with 24 samples.

Results

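The 10 genes described here, Dazl, Ddx4, Mael, Asz1, Stk31, Sycp1, Sycp3, Syce1, Hormad1 and Brdt, are germline genes whose promoters are known to carry DNA methylation in somatic tissues. They were chosen by name, with earlier results of these data known, and each matched 1 of the 23119 entries of the expression table. They were followed in WT JB4/EI7HZ2 cells, a female mouse embryonic stem cell (mESC) line from a cross of a JF1 mother and a B6 father, and in a single SmcHD1-mutant (KO) line derived from these cells. SmcHD1 is a chromatin protein of the SMC family with roles in X inactivation and in the repression of autosomal gene clusters. Poly(A) RNA was sequenced at 4 stages, with 3 libraries for each of the 8 groups: WT and KO mESCs, cells after 7 and after 9 days of differentiation to neurectoderm, and neural stem cells (NSCs) derived by another protocol. The mESCs of both genotypes were kept in serum with LIF and the 2i inhibitors of MEK and GSK3, under G418 and Zeocin, which select for cells holding both X chromosomes. The NSC media held the same drugs. Each genotype is represented by 1 line, so that effects of genotype and of line cannot be told apart. The study describes its RNA-seq replicates as biological ones, so the p-values below measure the spread between such replicates of these lines. The files used here hold RNA levels and no measurement of DNA methylation.

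In somatic lineages, DNA methylation is laid down at the CpG-rich promoters of many germline genes around implantation by DNMT3A and DNMT3B, and DNMT1 with UHRF1 copies it at each cell division. Before that step, and in germ cells themselves, these promoters are unmethylated or are held by other repressors, among them the Polycomb complex PRC1.6, which reaches DNA through MGA with MAX at the sequence CACGTG and through E2F6. mESCs grown in 2i medium are known for low genome-wide methylation, and many germline genes are transcribed in them at low to moderate levels.

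The promoter sequences of the members were read apart from their expression. For each member, the 250 bases before the transcription start were taken from RefSeq (GRCm38.p6) and found at exactly 1 place in the NCBIM37 (mm9) genome, the build of the expression table. The windows of the 3 genes with the highest WT mESC levels are shown in lower case, with every CG dinucleotide in capitals.
Dazl, chr17:50432946-50433195, minus strand: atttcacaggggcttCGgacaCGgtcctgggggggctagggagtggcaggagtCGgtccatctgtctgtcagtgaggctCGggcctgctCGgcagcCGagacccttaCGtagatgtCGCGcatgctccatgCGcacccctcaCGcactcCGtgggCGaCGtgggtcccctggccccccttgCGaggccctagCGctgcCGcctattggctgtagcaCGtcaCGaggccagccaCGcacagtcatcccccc
Syce1, chr7:147973754-147974003, minus strand: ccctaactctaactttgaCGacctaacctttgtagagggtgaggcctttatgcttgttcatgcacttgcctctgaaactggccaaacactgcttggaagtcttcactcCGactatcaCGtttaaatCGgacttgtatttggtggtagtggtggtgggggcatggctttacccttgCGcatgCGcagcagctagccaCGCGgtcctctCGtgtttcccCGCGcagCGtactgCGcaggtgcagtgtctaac
Hormad1, chr3:95363349-95363598, plus strand: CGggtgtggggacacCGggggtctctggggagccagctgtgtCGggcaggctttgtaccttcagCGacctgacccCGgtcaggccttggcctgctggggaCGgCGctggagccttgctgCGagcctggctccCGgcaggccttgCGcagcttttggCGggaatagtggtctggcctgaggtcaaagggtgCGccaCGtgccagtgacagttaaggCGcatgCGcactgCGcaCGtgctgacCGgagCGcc
The Dazl window holds 20 CG dinucleotides, that of Hormad1 19 and that of Syce1 13, most of them towards the start site in Syce1. Over the 10 members the count ran from 12 in Sycp3 to 31 in Ddx4, with a median of 17.5. The median of 27025 genes with such a window was 6, and 33.8% of them held 12 or more, a limit set by the lowest member.

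The sequence CACGTG, which reads the same on both strands, was present in the windows of 7 members and in 6.04% of all 27025. Sycp3 and Hormad1 held 2 matches and the others 1, and each is shown with 10 bases on either side and CACGTG in capitals.
Ddx4: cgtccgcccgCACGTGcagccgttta
Mael: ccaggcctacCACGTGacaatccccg
Sycp1: gagaacccggCACGTGggaagggaaa
Sycp3, first match: cgttggctccCACGTGagaacgggca
Sycp3, second match: gggcatggagCACGTGctaggaggcg
Stk31: gccggccaccCACGTGaccagggctg
Hormad1, first match: aagggtgcgcCACGTGccagtgacag
Hormad1, second match: gcgcactgcgCACGTGctgaccggag
Brdt: caggcacagtCACGTGgcagaccctg
In Ddx4 the match began 29 bases before the start site, in Stk31 55, in Hormad1 57 and 20, in Sycp3 64 and 43, in Brdt 78, in Sycp1 94 and in Mael 223 bases before it. The letters GCGGGAA, of the kind bound by E2F6, searched on both strands, were found in 3 members (Ddx4, Sycp3 and Hormad1) and in 3.86% of all windows. These 3 members held both motifs, which did not overlap in any of them, against 0.322% of all windows. Dazl, Syce1 and Asz1 held neither. A match is a description of the letters in this window and not a site of binding.

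The libraries matched their labels. Levels are in FPKM, sequenced fragments counted per kilobase of transcript and relative to all those mapped. Smchd1 RNA was 13.5 ± 0.502 FPKM (SD, n = 3) in WT mESCs and 2.50 ± 0.602 in KO mESCs, and every KO library lay below every WT library at each stage. Summed over 8 pluripotency markers, the level was 2882 to 3499 FPKM in the 6 mESC libraries, 326 to 536 at day 7, 69.9 to 158 at day 9 and 5.67 to 12.6 in NSCs, while 6 neural progenitor markers went from 91.2 to 154 FPKM in mESCs to between 3722 and 6714 in NSCs. Relative read numbers, worked out from the smallest steps between the values of low genes, differed by at most 1.42 times between libraries. Read totals are not given in the sources used here.

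All 10 genes were transcribed in mESCs of both genotypes. The order of the mean WT mESC levels, in FPKM and so per length, was Dazl, Syce1, Hormad1, Mael, Stk31, Ddx4, Sycp1, Brdt, Sycp3 and Asz1. The ranges of the WT mESC libraries of Dazl, Syce1, Hormad1, Mael and Stk31 did not overlap, while from Stk31 on each gene's range overlapped that of the next. Dazl, an RNA-binding protein that controls translation in germ cells (chr17:50418719-50432924, minus strand, mm9), gave 56.7, 37.4 and 49.6 FPKM in the WT mESC libraries and 91.2, 53.7 and 66.9 in the KO libraries. Syce1, a central element of the synaptonemal complex (chr7:147963128-147973753, minus strand), gave 26.5, 35.8 and 34.7 FPKM in WT mESCs and 29.8, 36.2 and 42.1 in KO mESCs. Hormad1, a protein of the meiotic chromosome axis (chr3:95363599-95391593, plus strand), gave 17.3, 22.2 and 20.8 FPKM in WT mESCs and 22.0, 27.6 and 25.9 in KO mESCs. For all 3 genes the WT and KO ranges overlapped, while in each of the 3 pairs of libraries with the same replicate number the KO value was the higher one. The same held for 18% of all tested genes, and these genes share their libraries and so are not separate evidence.

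The other 7 genes had mean levels between 2.28 and 5.32 FPKM in mESCs of either genotype. Mael (chr1:168131516-168168875, minus strand) and Asz1 (chr6:18000964-18059061, minus strand) act in the piRNA pathway that represses transposons in the male germline, and Ddx4 (chr13:113388541-113442518, minus strand) is the Vasa RNA helicase of the germ granule. Stk31 (chr6:49345603-49419501, plus strand) is a Tudor domain protein of germ cells. Sycp1 (chr3:102622422-102740023, minus strand) and Sycp3 (chr10:87922332-87966715, plus strand) build the transverse filaments and the lateral elements of the synaptonemal complex, and Brdt (chr5:107760213-107816077, plus strand) is the bromodomain protein of the testis. Relative to its mean, Asz1 spread most among WT mESC libraries, at 3.99, 2.07 and 0.799 FPKM in order of size. In the read steps, the WT mESC levels of Asz1 stood for only 6 to 32 reads and those of Sycp3 for 7 to 16, against 118 to 142 for Hormad1 and 174 to 221 for Syce1. Taking the smallest step as 1 read, 6 reads have an exact Poisson 95% interval of 2.202 to 13.1 and 142 reads one of 119.6 to 167, which covers counting error only. The lowest genes are therefore the least precisely measured.

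A single library stood apart for several members. KO mESC replicate 3 gave 1.31 FPKM of Sycp1 against 5.54 and 4.64 in the other KO mESC libraries, 2.56 of Stk31 against 5.91 and 6.02, and 0.768 of Sycp3 against 3.76 and 2.68. It was not low for Dazl, Hormad1, Syce1 or Brdt, where it lay between or above the other KO libraries. For Sycp1, Stk31 and Sycp3 the values that rest on it are given with and without it. Without it, the level kept in KO cells at days 7 and 9 was 2.86% and 2.98% of the KO mESC mean for Sycp1 (3.8% and 3.96% with it), 7.87% and 4.38% for Stk31 (9.72% and 5.41%) and 27.1% and 44.8% for Sycp3 (36.3% and 60.0%). Single day 7 libraries also carried some of these shares, which with all mESC libraries were 2.34% for Sycp1 and 6.08% for Stk31 without KO day 7 replicate 2.

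The first question was how far each gene fell as the cells left the mESC state. Dazl dropped the furthest by day 7. The WT day 7 libraries held 1.73, 0.370 and 0.390 FPKM and the WT day 9 libraries 0.438, 0.832 and 0.456, which is 1.73% and 1.20% of the WT mESC mean (0.794% at day 7 without replicate 1). In WT NSCs, 2 libraries were listed at 0 and the third at 0.0652 FPKM, worth 1 read. On the log2(FPKM + 1) scale, on which all differences below are given and which understates the change of low genes, Dazl fell by 4.80 ± 0.238 (SE) at day 7 and by 5.56 ± 0.238 in WT NSCs (limma, adjusted p = 3.03e-13 and 4.83e-15).

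Of the synaptonemal complex and axis genes, Syce1 followed the same course. It was at 1.53, 2.09 and 1.87 FPKM in WT day 7 libraries, at 0.408, 0.835 and 1.13 at day 9, and at 0, 0 and 0.140 in NSCs, and fell by 3.55 ± 0.192 at day 7 (limma, adjusted p = 1.23e-12). Sycp1 kept 6.10% of its WT mESC mean at day 7 and 0.463% at day 9, where 2 of 3 libraries were listed at 0. Hormad1 was slower, with 6.70, 2.63 and 1.63 FPKM at WT day 7, or 18.2% of its mESC mean (10.6% without replicate 1), and 2.36, 1.21 and 1.64 at day 9. The WT day 7 libraries spread widely, and none reached the mESC range. In NSCs it was listed at 0 in 5 of 6 libraries and at 0.137 FPKM in the other.

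Sycp3 kept the most at days 7 and 9. It was at 1.72, 0.881 and 0.930 FPKM in WT day 7 libraries and at 1.49, 0.953 and 0.194 at WT day 9, or 46.2% and 34.6% of the WT mESC mean of 2.54 ± 0.869 FPKM (SD, n = 3), and 22.6% at day 9 without replicate 1. Only the day 9 difference passed the threshold in WT (difference of -0.69 ± 0.307 at day 7, limma, adjusted p = 0.0572, and of -0.95 ± 0.307 at day 9, adjusted p = 0.00894). In KO cells the difference was -0.76 ± 0.307 at day 7 (adjusted p = 0.0366) and -0.39 ± 0.307 at day 9 (adjusted p = 0.261), where the libraries held 1.95, 1.53 and 0.845 FPKM. Without KO mESC replicate 3 the KO differences were -1.18 at day 7 (adjusted p = 0.0015) and -0.80 at day 9 (adjusted p = 0.0173). The day 9 call in WT was lost without WT day 9 replicate 3 (adjusted p = 0.0771), and the day 7 call in KO cells was lost in 7 of 12 alternatives, with adjusted p up to 0.223. In NSCs, Sycp3 ranged from 0 to 0.455 FPKM, which is at most 2 reads. The locus of Sycp3 in the table runs into Chpt1 on the opposite strand, a phospholipid synthesis gene at 14.9 to 21.6 FPKM in NSCs and 9.91 to 14.4 in mESCs. Whether reads were counted by strand is not stated, and the part of Chpt1 in the Sycp3 values was not tested.

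Among the piRNA and germ granule genes, Mael and Stk31 were listed at 0 in all 6 NSC libraries, as was Asz1. Mael passed through 1.30, 0.754 and 0.637 FPKM at WT day 7 and 0.637, 0 and 0.266 at WT day 9. Stk31 was at 9.59% of its WT mESC mean at day 7 and at 2.93% at day 9. Asz1, whose mean over 24 libraries of 0.653 FPKM missed the filter for the fit across genes, was at 0.114 to 0.139 FPKM in WT day 7 libraries, below every WT mESC library (exact permutation test, two-sided, p = 0.1, the smallest that 3 against 3 libraries allow). With no filter on low values its difference at WT day 7 was -1.42 ± 0.216 (limma, adjusted p = 1.5e-05). Ddx4 declined in smaller steps, at 1.36, 0.868 and 0.832 FPKM at WT day 7, 0.453, 0.464 and 0.764 at day 9, and 0.148, 0.417 and 0.138 in WT NSCs. All 24 libraries held Ddx4 reads, and its NSC level was 5.50% of the mESC mean in WT and 7.42% in KO cells, or 3.35% without WT NSC replicate 2 and 4.88% without KO NSC replicate 3.

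Brdt took another course. It was lowest at day 7, at 0.233, 0.405 and 0.380 FPKM in WT, and at 0.350 to 0.871 at WT day 9, a range that overlapped that of day 7. In NSCs it stood at 0.753 to 1.25 FPKM in WT and 0.603 to 0.834 in KO libraries, so that WT NSCs kept 31.8% of the mESC mean and KO NSCs 16.4%. In each genotype the NSC libraries lay above the day 7 libraries, a comparison for which no test was set up. The difference between NSCs and mESCs was -1.04 ± 0.202 in WT and -1.62 ± 0.202 in KO cells (limma, adjusted p = 8.05e-05 and 2.23e-07). Pseudogene Gm8152 lies within the Brdt locus on the opposite strand in GENCODE vM1, and Gm17060 within that of Stk31.

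**Figure D1:**
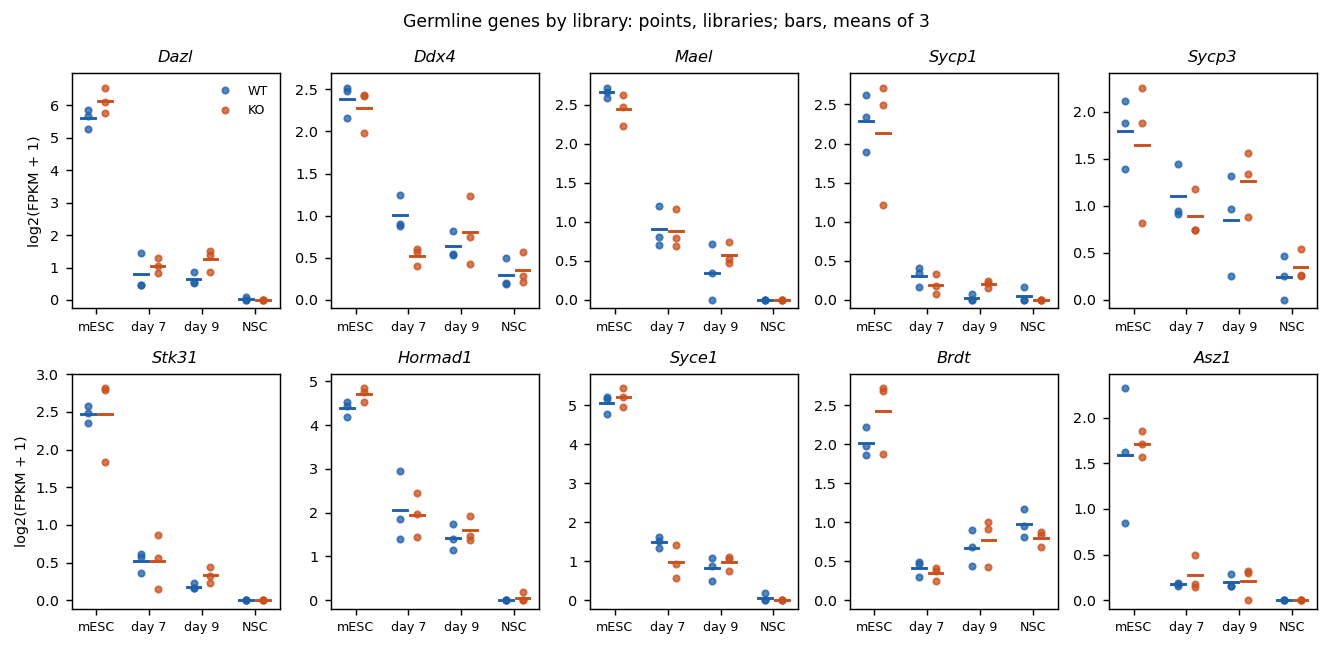
Level of each of the 10 genes in each of the 24 libraries, as log2(FPKM + 1) on the vertical axis, by stage and genotype, with points for libraries and bars for means of 3. All genes are highest in mESCs, 3 genes (Mael, Stk31 and Asz1) are at 0 in every NSC library, and Brdt is higher in NSCs than at day 7.

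The remaining members fell by amounts between these. In WT NSCs the difference from WT mESCs was -4.39 ± 0.282 for Hormad1, -2.66 ± 0.177 for Mael, -2.48 ± 0.205 for Stk31, -2.23 ± 0.253 for Sycp1 and -2.09 ± 0.193 for Ddx4 (limma, highest adjusted p = 5.82e-08, for Sycp1). The KO line gave -4.64 ± 0.282 for Hormad1, -2.45 ± 0.177 for Mael, -2.48 ± 0.205 for Stk31, -2.14 ± 0.253 for Sycp1 and -1.92 ± 0.193 for Ddx4, with the same standard errors because all groups share 1 fit. Without KO mESC replicate 3 the KO differences were -2.80 for Stk31, -2.60 for Sycp1 and -1.71 for Sycp3 (limma, highest adjusted p = 1.8e-05).

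In the KO line the levels at days 7 and 9 were low as well. Dazl was at 0.786, 1.44 and 1.06 FPKM in KO day 7 libraries and Hormad1 at 2.91, 4.45 and 1.74, which is 1.55% and 12.1% of their KO mESC means. Mael was at 0.740, 1.24 and 0.618 FPKM at KO day 7 and at 0.668, 0.392 and 0.434 at day 9. Sycp1, of which 2 WT day 9 libraries showed none, was at 0.166, 0.109 and 0.180 FPKM in KO day 9 libraries, a level of a few reads each. Stk31 was at 0.109, 0.822 and 0.478 FPKM at KO day 7, a wider spread than in WT (0.289 to 0.534), and at 0.174 to 0.355 at day 9. Asz1 was at 0.108 to 0.406 FPKM in KO day 7 libraries and at 0 to 0.253 at day 9, where 1 library was listed at 0. Brdt was at 0.184 to 0.331 FPKM at KO day 7 and at 0.345 to 0.996 at day 9.

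Counted over the 9 members that passed the filter, which they owe to their mESC levels, 8 were called lower at WT day 7, 9 at WT day 9 and 9 in WT NSCs, where 30.2%, 35.1% and 38.3% of the 12105 tested genes were called lower. In KO cells the counts were 9 at day 7, 8 at day 9 and 9 in NSCs, against 31.8%, 35.6% and 38.2% of all tested genes. The member not called was Sycp3 in each case, and without KO mESC replicate 3 it was called at KO day 9 too. After scaling all libraries to the same sum the shares called lower among all tested genes were smaller, at 18.4%, 21.6% and 25.3% in WT and 20.9%, 24.8% and 24.3% in KO cells, and those called higher went from between 29.1% and 37.7% to between 36.1% and 52.2%. The members called lower were then 8, 9 and 9 in WT and 8, 8 and 9 in KO cells. Since a gene that is off in most groups passes only through the group where it is high, the counts do not show that germline genes fell more often than others. The median share of the mESC level over the 10 genes was 10.3% at day 7, 6.13% at day 9 and 0.095% in NSCs of the WT line, and 9.60%, 7.67% and 0% in the KO line (9.03%, 8.00% and 0% without KO mESC replicate 3).

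**Figure D2:**
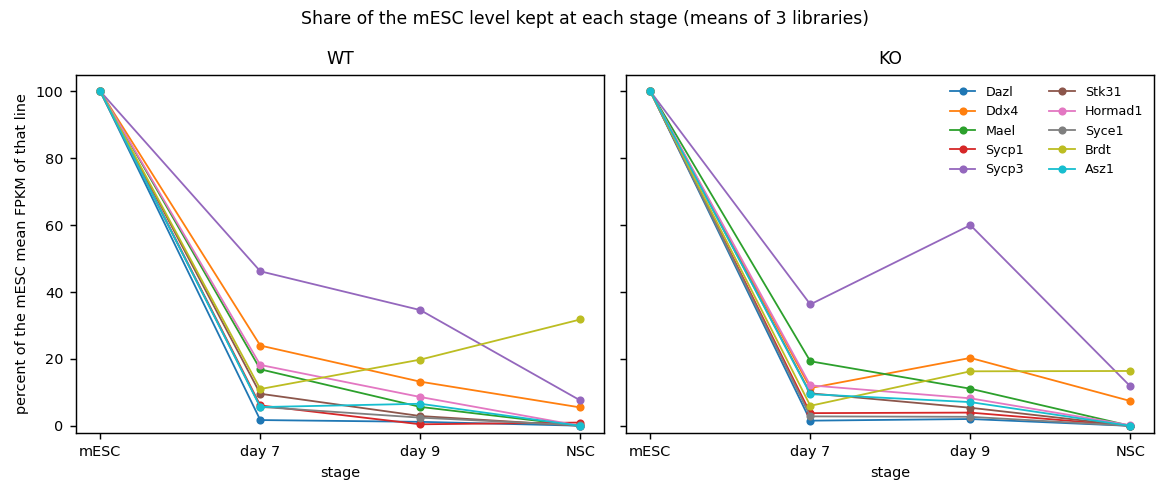
Mean level at each stage as a percent of the mESC mean FPKM of the same line, for each of the 10 genes, in WT (left) and KO cells (right). All genes but Sycp3 are at 24% or below by day 7, Sycp3 stays at 34.6% or above up to day 9 in both lines (27.1% at KO day 7 without KO mESC replicate 3, 22.6% at WT day 9 without replicate 1 of that group), and Brdt ends at 31.8% in WT and 16.4% in KO NSCs.

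The second question was whether loss of SmcHD1 changed these levels. At no stage was a member called between KO and WT (0 of 9 at each of the 4 stages, limma), while the shares of tested genes called were 0.529% (mESCs), 3.68% (day 7), 6.68% (day 9) and 6.02% (NSCs). At an unadjusted p under 0.05 the counts were 1, 2, 1 and 0 of 9, where 7.66%, 13.9%, 17.3% and 18.1% of all tested genes passed. A p that misses the threshold does not show that the lines are alike, and the intervals on this scale give differences not excluded by these libraries. In mESCs the differences ran from -0.21 for Mael to 0.54 for Dazl, at day 7 from -0.52 for Syce1 to 0.26 for Dazl, at day 9 from 0.10 for Brdt to 0.61 for Dazl, and in NSCs from -0.18 for Brdt to 0.11 for Sycp3. The 95% confidence intervals reached no lower than -0.92 (Syce1 at day 7) and no higher than 1.11 (Dazl at day 9). Since most members lay near or below 1 FPKM after the mESC stage, the scale shrinks their differences. With a pseudocount of 0.1 the median over the 9 members at day 9 was 0.60 in place of 0.17, Dazl differed by 1.17 at day 9 and Ddx4 by -1.04 at day 7, the intervals over the 4 stages reached from -1.90 (Ddx4 at day 7) to 2.2 (Sycp3 at day 9), and 0 of 9 members were called at each stage (limma, lowest adjusted p = 0.14, with 0, 2, 2 and 0 of 9 at an unadjusted p under 0.05).

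**Figure D3:**
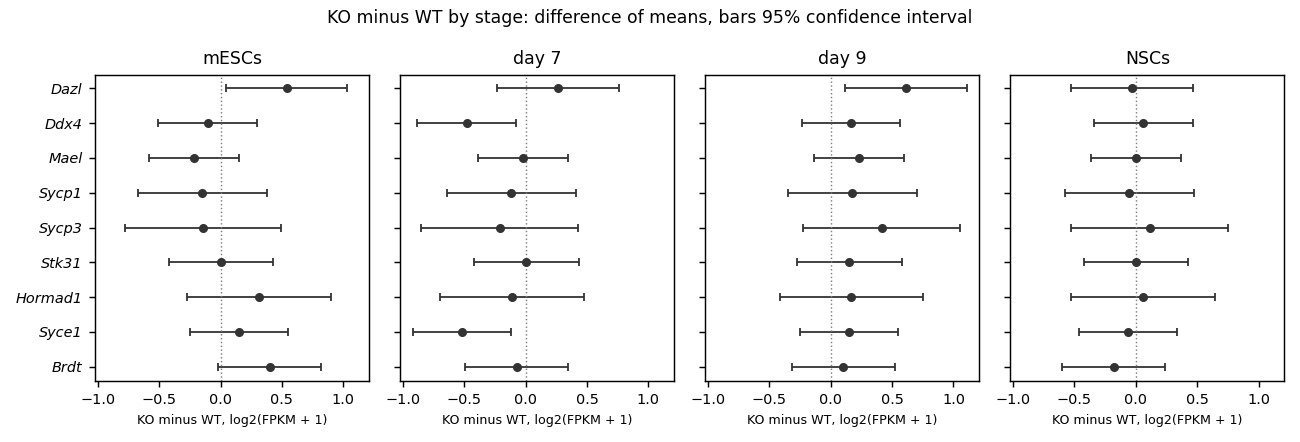
Difference between KO and WT in mean log2(FPKM + 1), by stage, for the 9 genes that entered the fit, with 95% confidence intervals from limma. Most intervals include 0, the exceptions being Dazl in mESCs and at day 9 (higher in KO) and Ddx4 and Syce1 at day 7 (lower in KO), and none of these passed the adjusted threshold.

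Deviations of same-numbered KO and WT libraries correlated in mESCs, and the members were also read within such pairs. The labels do not state a pairing, and the reading was added after the values were seen. KO lay above WT in all 3 pairs for 4 of 10 genes (Dazl, Hormad1, Syce1 and Brdt) and below it in all 3 for 1 (Ddx4), against 18% and 16.7% of all tested genes. The genes share these libraries and so are not separate evidence. Hormad1 differed by 0.33, 0.30 and 0.31 in the 3 pairs and Dazl by 0.68, 0.51 and 0.42, while Syce1 and Brdt differed by 0.02 and 0.006 in the second pair. With the replicate block the difference was 0.31 ± 0.228 for Hormad1 (limma, adjusted p = 0.641) and 0.54 ± 0.237 for Dazl (adjusted p = 0.387). In NSCs the counts were 0 of 10 in each direction, against 18.9% and 17.6% of all tested genes, but 7 of the 10 genes were above 0 in at most 1 of the 6 NSC libraries and could not have differed in all 3 pairs.

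Dazl had the largest difference in 2 stages. In mESCs its mean was 70.6 ± 19.05 FPKM in KO and 47.9 ± 9.76 in WT (SD, n = 3), a difference of 0.54 with a 95% interval of 0.04 to 1.03 (limma, adjusted p = 0.595). At day 9 the KO libraries held 1.64, 0.833 and 1.84 FPKM, all above the WT libraries, although the lowest KO value exceeded the highest WT value of 0.832 only in the last digit printed, and the difference was 0.61 with an interval of 0.12 to 1.11 (limma, adjusted p = 0.152). Ddx4 at day 7 was at 0.516, 0.486 and 0.323 FPKM in KO libraries, all below the WT libraries, with a difference of -0.48 and an interval of -0.88 to -0.08 (limma, adjusted p = 0.225). Syce1 at day 7 was at 0.921, 1.65 and 0.494 FPKM in KO libraries, of which 1 lay within the WT range, with a difference of -0.52 and an interval of -0.92 to -0.12 (limma, adjusted p = 0.176). Without KO day 7 replicate 2, the library within that range, the Syce1 difference was -0.74 and passed the threshold (adjusted p = 0.0397).

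At day 9 the KO mean was above the WT mean for all 10 genes, which share the same 6 libraries and so are not separate evidence. KO and WT libraries were fully separated for 3 of them (Dazl, Sycp1 and Stk31), a share near the 32.3% of all tested genes that were separated in this way at day 9. At day 7 this held for 1 of 10 (Ddx4) against 24% of tested genes, and in mESCs and NSCs for 0 of 10 against 11% and 16.7%. Beside these values, the pluripotency marker sum at day 9 was 93.8 to 158 FPKM in KO and 69.9 to 102 in WT libraries, and its part in the day 9 differences was not tested. Sums of other marker lists also moved with genotype. The 7 genes listed for extraembryonic endoderm summed to 20.3 to 51.5 FPKM in WT and 0.700 to 1.68 in KO cells at day 7. At day 9 they summed to 27.4 to 52.3 FPKM in WT and 2.75 to 11.8 in KO cells. Foxa2 led these sums, and Afp and Ttr were below 1 FPKM on average in every group. The sums therefore do not show that cells of this lineage were present. In NSCs these sums lay the other way, at 0 to 0.173 FPKM in WT and 1.59 to 4.00 in KO cells. For 6 trophoblast markers the day 7 sums were 13.1 to 19.0 FPKM in WT and 2.64 to 5.18 in KO cells, the mESC sums lay the other way, at 7.19 to 11.0 in WT and 16.9 to 28.8 in KO cells, led by Cdx2, and the day 9 ranges overlapped at 7.27 to 14.3 and 5.80 to 10.8. The part of these marker genes in the differences between the genotypes was not tested. Fewer cells of a type and less RNA per cell cannot be told apart in such samples.

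Leaving out KO mESC replicate 3 moved the KO to WT difference in mESCs from -0.15 to 0.32 for Sycp1, from 0.0026 to 0.33 for Stk31 and from -0.14 to 0.27 for Sycp3, and called no member (lowest adjusted p = 0.85, for Dazl). The test of whether the KO effect changed from mESCs to a later stage called 0 of 9 members at day 7, at day 9 and in NSCs, against 1.68%, 2.68% and 2.26% of tested genes. At an unadjusted p under 0.05 this was 1 of 9 at day 7 and 0 of 9 at the others, against 9.84%, 12.4% and 14% of tested genes.

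Markers of the cells that normally express these genes were followed alongside. All 8 primordial germ cell markers were above 0 in mESCs of both genotypes, with WT means of 214 FPKM for Ifitm3, 119 for Dppa3, 56.2 for Prdm14, 28.3 for Tfap2c, 24.3 for Kit, 11.3 for Dnd1 and 4.27 for Nanos3. The summed level was 381 to 592 FPKM in mESCs, 81.4 to 111 at day 9 and 15.8 to 30.8 in NSCs. At day 7 it was 163.4 to 198 in WT and 128 to 162.9 in KO cells, ranges that nearly met. Ifitm3 alone averaged 101 FPKM in WT and 77.3 in KO cells at day 7. The sum fell over the same stages as that of the pluripotency markers, and it does not show that germ cells were present. Prdm1, an early determinant of germ cells, was at 0.553 and 0.676 FPKM on average in WT and KO mESCs, at 2.28 and 1.24 FPKM at day 7, at 1.06 and 0.555 at day 9 and at 1.16 and 1.14 in NSCs. Haploid spermatid markers, 8 genes, summed to at most 3.42 FPKM in any library, and 7 markers of 2-cell-like cells to 1.52 to 4.80 FPKM in WT and 0.382 to 1.26 in KO mESCs and to at most 0.534 at the later stages. The part of these markers in the differences between the genotypes, among them those of Ddx4 and Syce1 at day 7, was not tested. The 9 entries for oocyte markers summed to 5.17 to 10.9 FPKM in mESCs, led by Zp3, to 1.35 to 4.08 at days 7 and 9, and in NSCs to 1.91 to 2.54 in WT and 3.58 to 4.92 in KO cells, where Gdf9 averaged 1.54 and 2.24 FPKM and Npm2 0.691 and 1.80. Oog1 and Oosp1 were at 0 throughout.

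Other genes of the same pathways were read from lists that exclude the members. Of 23 further genes of the meiotic chromosome axis and synapsis, 10 were tested, and 6 were called lower and 1 higher at WT day 7 and 8 and 1 in WT NSCs, where 30.2% and 29.1% of all tested genes were called lower and higher at day 7 and 38.3% and 36.9% in NSCs. As for the members, a gene of these lists that is off in most groups passed the filter only through the group where it is high. The list had a median difference of -1.51 in NSCs where that of all tested genes was -0.01. Hormad2, the partner of Hormad1, averaged 17.7 FPKM in mESCs of the WT line, 2.82 at day 7 and 0 in NSCs, and the recombinase Dmc1 went from 10.0 to 4.27 and 0.0296 FPKM, both called lower at each stage (limma, adjusted p at most 0.000127). Syce3 was at 2.34, 3.33 and 0 FPKM in WT mESCs and 2.37 on average at WT day 7 (difference 0.45, adjusted p = 0.353). Syce2, a partner of Syce1 in the central element, was far above the members at 112 ± 21.0 FPKM in WT mESCs, and remained at 20.2 ± 4.27 in WT NSCs and 5.17 ± 3.99 in KO NSCs (9.71, 3.58 and 2.21 FPKM, or 2.90 on average without KO NSC replicate 1). This was the single KO to WT call among the 10 tested genes of the list, in NSCs, where 6.02% of all tested genes were called. The difference was -1.95 ± 0.295 (limma, adjusted p = 0.000284), and it was not called when only the compared groups were fitted (adjusted p = 0.143).

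Of 18 further piRNA and germ granule genes, 9 were tested, and 8 were called lower and 1 higher at WT day 7 and 7 and 2 in WT NSCs, to be read against the same shares of all tested genes. The median was -3.39 in NSCs. Tex19.1, which protects the germline against transposons, went from 122 FPKM in mESCs of the WT line to 8.28 and 2.13 at days 7 and 9 and 0 in NSCs, and Tdrd12, a Tudor domain protein of the piRNA pathway, from 52.9 to 6.65, 1.48 and 0.0419. At day 9 both were higher in KO cells, Tdrd12 at 3.37 ± 0.773 FPKM against 1.48 ± 0.352 in WT (difference 0.81 ± 0.177, limma, adjusted p = 0.00538) and Tex19.1 at 3.78 ± 0.972 against 2.13 ± 0.264 (difference 0.59 ± 0.145, adjusted p = 0.0128). The Tdrd12 call held in all 12 alternatives and that of Tex19.1 in 7 of 12. These were the 2 calls among the 9 tested genes at day 9, where 6.68% of all tested genes were called. Tdrd7, which is used outside the germline too, was higher in KO cells at day 7, at 5.50 ± 0.628 against 2.55 ± 0.322 FPKM (difference 0.87 ± 0.155, adjusted p = 0.0012, called in all 12 alternatives), and reached 11.9 FPKM in WT NSCs. Gtsf1, at 9.77 FPKM in WT and 5.71 in KO mESCs, was not called between the genotypes at any stage (lowest adjusted p = 0.0688, at day 7). Its KO effect did change from mESCs to day 7, from -0.66 to 0.99 (change of 1.65 ± 0.419, limma, adjusted p = 0.0473, called in 5 of 18 alternatives), with KO day 7 libraries at 3.51, 0.800 and 0.798 FPKM. Fkbp6, named here because it was the 1 gene of the list called in mESCs, was at 22.7 ± 5.91 FPKM in KO and 12.7 ± 1.51 in WT (adjusted p = 0.0316, called in 5 of 12 alternatives). Of all tested genes, 0.529% were called in mESCs and 3.68% at day 7, where Tdrd7 was the 1 call of the list.

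The remaining germline lists gave fewer tested genes. Of 12 further genes of RNA binding and translation, 6 were tested. Dnd1 fell from 11.3 FPKM in mESCs of the WT line to 3.79 at day 7 and 0.620 in NSCs, while Ybx2 rose from 4.20 to 9.24 FPKM at WT day 7 (limma, adjusted p = 0.000908) and was at 0.178 in WT NSCs. KO to WT calls on this list were Ybx2 at day 9 (8.58 ± 1.14 against 4.36 ± 1.05 FPKM, adjusted p = 0.0356, called in 5 of 12 alternatives) and Cpeb1 in NSCs (2.54 ± 1.15 against 1.12 ± 0.401 FPKM, adjusted p = 0.0381, called in 8 of 12). Each was 1 of 6 tested genes, where 6.68% of all tested genes were called at day 9 and 6.02% in NSCs. Of 11 further genes of germline chromatin and transcription, 3 were tested. Sohlh2, a transcription factor of early gametogenesis, went from 61.5 FPKM in WT mESCs to 3.14 at day 7 and 0 in NSCs, and Taf4b from 10.7 to 3.15 and 1.34.

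Of 18 other germline genes known to be released when promoter methylation is lost, 9 were tested, and 6 were called lower and 0 higher at WT day 7 and 8 and 1 in WT NSCs, against 30.2% and 29.1% of all tested genes at day 7 and 38.3% and 36.9% in NSCs. The median was -2.19 in NSCs. KO to WT calls by limma were 0 of 9 at each stage. At an unadjusted p under 0.05 the counts were 0, 3, 2 and 2 in mESCs, day 7, day 9 and NSCs, where 7.66%, 13.9%, 17.3% and 18.1% of all tested genes passed. Rpl10l, a retrogene copy of a ribosomal protein gene, went from 119 FPKM in mESCs of the WT line to 8.53 and 2.50 at days 7 and 9 and 0 in NSCs, and Tuba3a from 16.1 to 2.09, 0.497 and 0. Both have close paralogs, so that their reads could have been split. Cox7b2 was at 3.77 FPKM in WT and 6.63 in KO mESCs (adjusted p = 0.719). Cox6b2 averaged 80.2 ± 36.0 FPKM in mESCs of the WT line, 41 ± 4.82 at day 7, 53.2 ± 8.23 at day 9 and 20.3 ± 2.26 in NSCs, and was called lower at day 7 and in NSCs but not at day 9 (limma, adjusted p = 0.00463, 7.55e-07 and 0.0711).

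The genes that write and copy DNA methylation followed different courses. In WT cells, Dnmt3b was at 35.1 FPKM in mESCs, 48.2 at day 7 (difference 0.47, limma, adjusted p = 0.0946), 7.52 at day 9 and 1.22 in NSCs, and its cofactor Dnmt3l at 47.8, 33.6, 5.62 and 0. Dnmt3a stayed between 15.5 and 19.3 FPKM in all 8 group means, and Dnmt1 between 63.8 and 98.1. In the WT line Uhrf1 averaged 180 FPKM in mESCs and 60.4 in NSCs. WT NSC replicate 1 stood apart for both Uhrf1 (106, 27.6 and 47.9 FPKM) and Dnmt3b (2.17, 0.646 and 0.838), and without it the WT NSC means were 37.7 and 0.742 FPKM. Of the TET enzymes, which oxidise methylcytosine, Tet1 fell from 14.7 to 5.42 FPKM and Tet2 from 21.8 to 4.03 by WT day 7, and Tet3 rose from 2.18 to 7.81 and to 15.2 in NSCs (limma, adjusted p at most 1.18e-05 for the 3 at day 7). Between KO and WT, 0.529% of all tested genes were called in mESCs and 3.68% to 6.68% at the later stages. Of the 8 genes, only Dnmt3l was called between KO and WT, and only in mESCs. It was at 18.1, 19.5 and 9.48 FPKM in KO mESCs and at 45.7, 62.7 and 35.01 in WT mESCs, with no overlap (difference -1.57 ± 0.228, adjusted p = 0.00149), a call lost only when the mESC groups were fitted alone (adjusted p = 0.30).

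**Figure D4:**
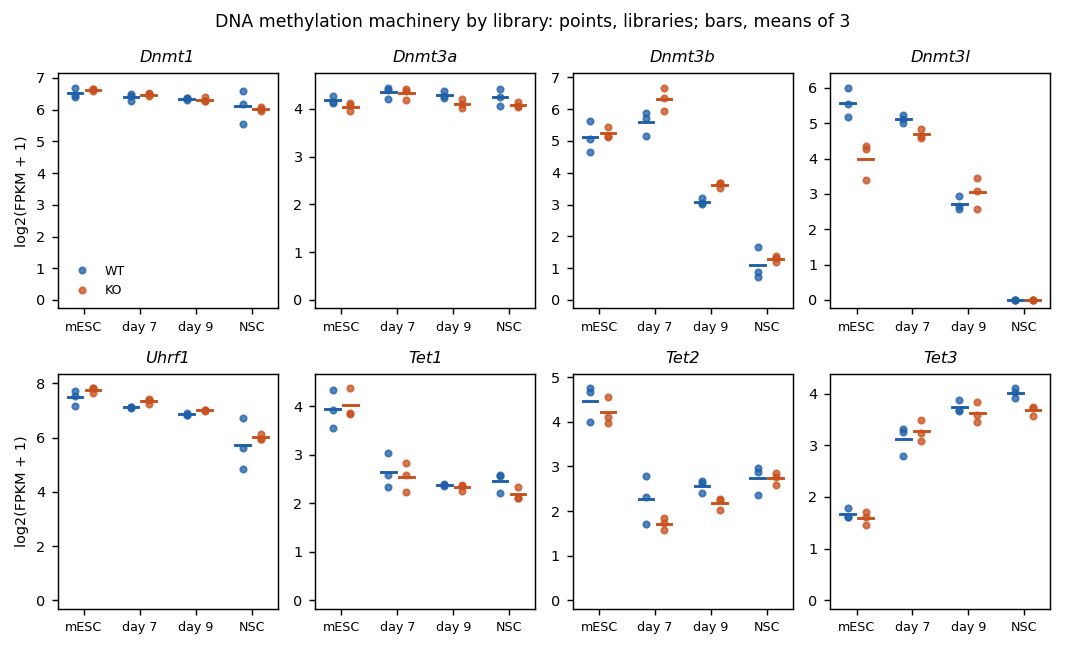
Level of 8 genes of the DNA methylation machinery in each library, as log2(FPKM + 1) on the vertical axis, by stage and genotype, with points for libraries and bars for means of 3. Dnmt3b and Dnmt3l are high up to day 7 and low in NSCs, Tet3 rises, and Dnmt3l is lower in KO than in WT mESCs.

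All 20 genes listed as repressors of germline promoters were tested, and 9 were called lower and 5 higher at WT day 7, where 30.2% and 29.1% of all tested genes were called lower and higher. Pcgf6, a defining subunit of PRC1.6, went from 51.2 FPKM in mESCs of the WT line to 26.2 and 19.4 at days 7 and 9 and 9.17 in NSCs. Rybp, a Polycomb subunit, went from 58.5 to 33.3, 24 and 10.5 FPKM and was lower in KO than in WT cells at day 9, at 15.9 ± 0.888 against 24 ± 3.42 (difference -0.55 ± 0.134, limma, adjusted p = 0.0123, called in 9 of 12 alternatives). It was also called at day 7 (adjusted p = 0.0492), in 3 of 12 alternatives. Atf7ip, a cofactor of the H3K9 methyltransferase SETDB1, was at 24.4 FPKM in KO and 16.8 in WT cells at day 7 (adjusted p = 0.0563).

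The courses of the members were alike over the 8 group means of log2(FPKM + 1), as a description. Pearson's r between 2 members had a median of 0.958 over 36 pairs of the 9 genes in the fit and was lowest between Sycp3 and Brdt at 0.641. Against the mean course of the 9, Syce1 was closest (r = 0.998) and Brdt furthest (r = 0.882). Each member is itself part of that mean, which raises its r, so these r are not on a par with those of other genes. Of 5725 other genes that varied between groups, 546 reached an r of 0.95 or more with that mean course. The 5 with the highest r were 1110001A16Rik, Tfcp2l1, Ly6g6e, Fcgr3 and Cd84. Tfcp2l1, a transcription factor of naive pluripotency, averaged 107 FPKM in mESCs of the WT line, 3.30 and 1.16 at days 7 and 9, and 0.014 in NSCs, and 1110001A16Rik went from 44.5 to 20.02, 16.9 and 14.3. The 8 points share their libraries, and a course that is high in mESCs and low afterwards was common in the table.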

How the data were processed

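Per the labels and the study's methods, stranded poly(A) libraries were sequenced, reads were trimmed with Trim Galore 0.6.6 and aligned to mm9 with TopHat2 2.1.1, ribosomal and X-linked reads were removed, and the authors deposited FPKM per library from Cuffdiff. The library normalization, the strand setting and read totals are not given in the sources used here. The table holds 12 FPKM columns of other samples, which were not used. Of 22028 entries outside X and Y, 12105 reached a mean FPKM of 1 across the 24 libraries and were tested. Log2(FPKM + 1) was fitted with limma 3.58.1 (statmod 1.5.0, R 4.3.3), all 8 groups without intercept, eBayes with trend and robust, and Benjamini-Hochberg adjustment over all tested genes, with a call at an adjusted p under 0.05. limma offset a few near-zero variances away from zero. The fit was tested on simulated data. The members and lists were chosen with earlier results of these data known.

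Named besides the members were the 2 tested genes of each list with the largest differences over the WT stages and over KO to WT, the 8 methylation genes, and the 5 genes of most similar course. Relative depth came from values of low genes, of which 95.7% lay within 0.1 of a whole multiple of the smallest, and 10 genes that every cell uses were above 0 in all libraries. Replicate numbers are shared between genotypes. Deviations of same-numbered KO and WT libraries correlated over 0.1 for all 3 pairs in mESCs (0.141 to 0.435) and in NSCs (0.184 to 0.335). At day 7 and day 9 they did not. The numbers were therefore read as pairs in mESCs and NSCs. The labels do not state a pairing, and libraries of unlike number were not compared. Promoters came from RefSeq (GRCm38.p6), 1 window a gene, and all 10 members matched. Alternatives were a pseudocount of 0.1, no filter and a filter at 0.1 FPKM, scaling to the same sum, the compared groups alone, a replicate block, and leaving out each library.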

Additional observations from a re-analysis of the deposited data

Results flagged for a closer look

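No member was picked out. Of the 28 genes named from the other lists, 5 had a KO effect that differed between stages by limma's test of the difference itself, with 2 of 28 called at each of day 7, day 9 and NSCs, where 1.68%, 2.68% and 2.26% of all tested genes were called (0.983%, 1.5% and 1.21% at the lowest with 1 library left out, and 5.01% in NSCs without WT NSC replicate 1). Many of the 28 were named for the largest KO to WT differences of their list, so that their counts are a description and no support. For Syce2 the effect in NSCs minus that in mESCs was -2.06 (adjusted p = 0.0118, called in 17 of 18 alternatives). For Dnmt3l the effect at day 9 minus that in mESCs was 1.89 (adjusted p = 0.00119, called in 18 of 18) and the effect in NSCs, where it was listed at 0, minus that in mESCs was 1.57 (adjusted p = 0.0117, called in 17 of 18). With every NSC library at 0, the latter only restates the Dnmt3l difference in mESCs with its sign turned. For Ybx2 the change from mESCs to day 9 was 1.33 (adjusted p = 0.0381, called in 7 of 18). From mESCs to day 7 the change was 1.65 for Gtsf1 (adjusted p = 0.0473, called in 5 of 18) and 0.86 for Tdrd7 (adjusted p = 0.047, called in 5 of 18).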

How the results depend on the processing

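The number of members called stayed within 1.5 times the reported count in 173 of 174 combinations of comparison and alternative. The exception was KO against WT at day 7, where leaving out 1 library at a time gave 0 to 1 members, the 1 being Syce1 without KO day 7 replicate 2. Of 696 values for single members, 682 kept their direction and their side of the threshold, 8 lost and 6 gained the call, and 0 reversed. All but 1 of these 14 were Sycp3 and the other Syce1. With a replicate block the member calls between KO and WT remained 0 of 9 at all 4 stages, and 9 of 9 were then called lower at WT day 7, with Sycp3 at an adjusted p of 0.0243, while the block changed no other member's call. Over all genes the block gave 98 KO to WT calls in mESCs against 64 and 1145 in NSCs against 729. Leaving out 1 library moved these counts by over 1.5 times at every stage: to between 20 (KO replicate 3) and 112 (WT replicate 2) in mESCs, with 42, 34 and 38 without WT replicates 1 and 3 and KO replicate 2, to 273, 280 and 294 at day 7 against 446 (WT replicates 2 and 3, KO replicate 3), to 449, 494 and 474 at day 9 against 809 (WT replicates 2 and 3, KO replicate 1), and in NSCs to 1352, 485 and 406 (WT replicate 1, KO replicates 2 and 3). The counts of genes whose KO effect changed from mESCs moved likewise: at day 7 from 203 to 121 and 119 (WT day 7 replicate 2, KO day 7 replicate 3) and to 1.02% of tested genes without KO mESC replicate 3, at day 9 from 324 to 181 and 183 (WT day 9 replicate 2, KO day 9 replicate 1), and in NSCs from 274 to 607 without WT NSC replicate 1 and to 163, 154, 150 and 146 (WT mESC replicate 3, KO mESC replicates 2 and 3, KO NSC replicate 3). Fitting the compared groups alone, with fewer samples, gave 1 in mESCs, 58 in NSCs and 1377 at day 9 against 809, and no filter gave 164 in mESCs and 1221 at day 9. Scaling to the same sum raised the median difference of all genes by up to 0.44 in the stage comparisons (KO NSCs against KO mESCs), and all members stayed lower. Levels at or under a few reads limit what can be seen in NSCs, where 3 members were listed at 0 in every library.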
